A study of Mus musculus with 6 samples.

Results

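The genes of the ionotropic glutamate receptors of the AMPA and kainate classes were followed in purified mouse retinal ganglion cells (RGCs), the neurons whose axons form the optic nerve. The 9 genes are Gria1, Gria2, Gria3 and Gria4 for the AMPA receptor and Grik1, Grik2, Grik3, Grik4 and Grik5 for the kainate receptor, taken by symbol from a table of 24060 genes. RGCs from embryonic day 18 (E18), an age of fast axon growth, were compared with RGCs from postnatal day 5 (P5), when that growth has slowed. Each age had 3 samples, numbered 1, 3 and 4 at E18 and 6, 8 and 9 at P5, all from C57BL/6 mice, and no treatment or genetic change is named for either age. Retinas were dissociated with papain, macrophages were removed with antibodies, and RGCs were held on dishes coated with anti-CD90 (Thy1) antibody. The sources do not say whether samples came from separate litters or pooled animals, so p-values measure the spread between these samples, which may be technical. E18 replicate 1 was taken from a column whose heading adds the numbers 2 and 5.

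AMPA and kainate receptors are tetramers of these subunits, and glutamate opens the ion channel in their centre. AMPA receptors carry most of the fast excitatory input that RGCs receive from bipolar cells, and GluA2, the product of Gria2, makes the channel nearly impermeable to calcium. Kainate receptors are built from GluK1, GluK2 and GluK3, which form channels by themselves, and GluK4 and GluK5, which bind kainate tightly and need one of the former as partner.

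The calcium block by GluA2 rests on a single codon in the pore loop, the Q/R site, which the genome spells for glutamine and which editing of the RNA turns into an arginine codon. The transcripts of GluK1 and GluK2 are edited at the same place. The reference sequence around that codon is shown for each subunit gene, whether or not its transcript is edited there. It is given 5′ to 3′ from the GENCODE transcripts of mm10, with the codon in capitals.
Gria1: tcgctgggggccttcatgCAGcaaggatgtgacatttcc
Gria2: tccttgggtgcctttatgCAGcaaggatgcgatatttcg
Gria3: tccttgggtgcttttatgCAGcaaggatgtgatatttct
Gria4: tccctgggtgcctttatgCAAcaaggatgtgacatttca
Grik1: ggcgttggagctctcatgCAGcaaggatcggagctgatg
Grik2: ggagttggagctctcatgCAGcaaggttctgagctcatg
Grik3: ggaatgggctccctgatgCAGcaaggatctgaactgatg
Grik4: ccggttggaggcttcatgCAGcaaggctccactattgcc
Grik5: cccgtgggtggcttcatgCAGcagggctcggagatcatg
The edited codon of Gria2 lies in exon 11 of 16, at chr3:80706911-80706913 on the minus strand. That of Grik1 is in exon 12 of 17, at chr16:87940542-87940544 on the minus strand, and that of Grik2 in exon 12 of 17, at chr10:49244329-49244331 on the minus strand. Over the 39 bases, the AMPA genes shared 32 to 36 with each other, Grik1, Grik2 and Grik3 shared 30 to 35, and an AMPA and a kainate gene shared 21 to 27. Read counts per gene hold no trace of the edited base, so editing itself was not measured.

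All 4 AMPA subunit genes were higher at P5 than at E18, by 1.36-fold to 1.67-fold. The kainate genes moved in opposite directions, with Grik3 3.25-fold and Grik1 2.54-fold higher at P5 and Grik2 2.21-fold higher at E18, whereas Grik4 and Grik5 did not pass the test. Levels are given as CPM, read counts scaled to a common library size with TMM normalization, which centres the bulk of genes between samples, and each fold change has the standard error (SE) of the model. The edgeR adjusted p is that of the quasi-likelihood test, adjusted over 16449 genes after Benjamini-Hochberg, and 0.05 was the threshold. Of the 9 genes 7 passed, 1 higher at E18 and 6 lower. Over all genes tested, 43.4% passed, 20.8% higher at E18 and 22.5% lower. In 8 of the 9 genes, all but Grik4, the values of the ages did not overlap, against 56.1% of all genes tested. The median log2 fold change of E18 over P5 was -0.60 over the 9 genes and 0.00473 over all genes tested. In bulk samples, a smaller share of cells that express a gene and less of its RNA per cell cannot be told apart.

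**Figure D1:**
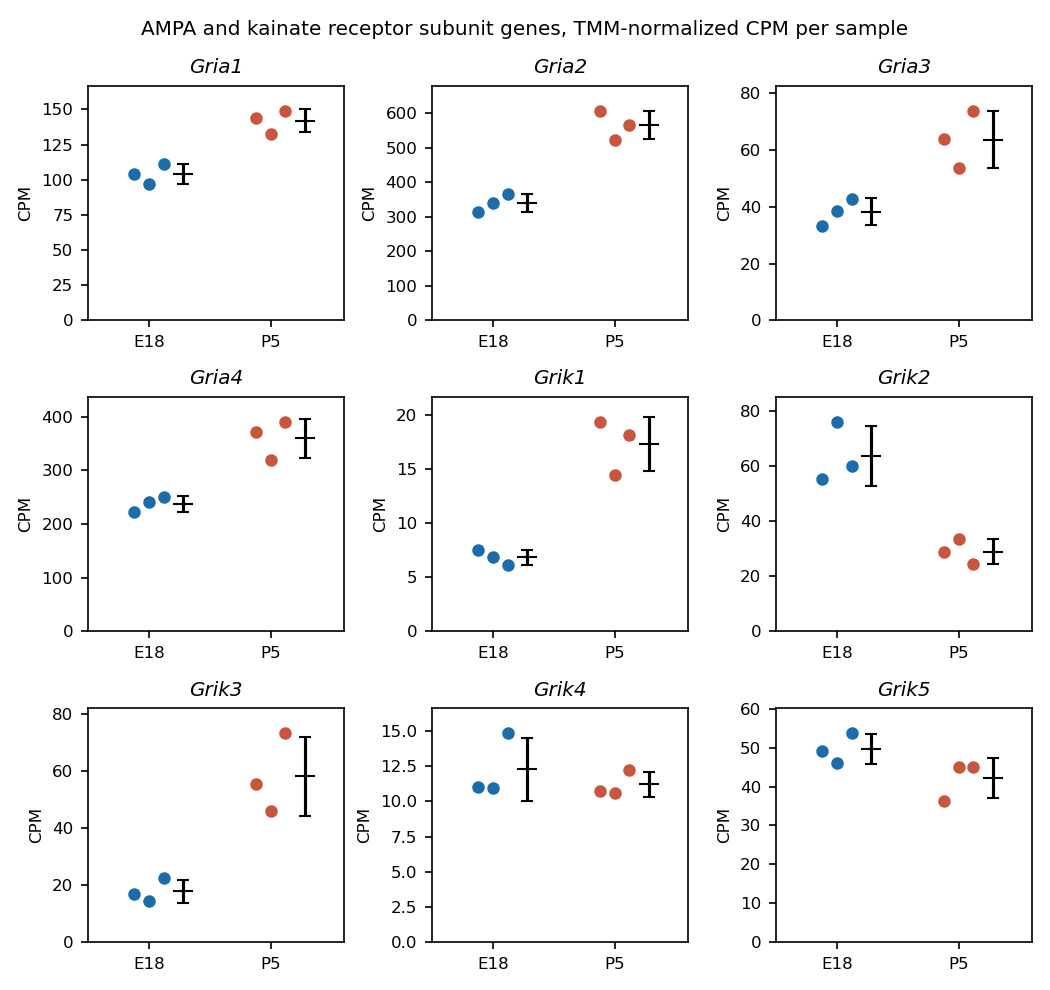
Each panel plots the TMM-normalized CPM of a subunit gene on a linear axis from 0, with points for the 3 samples of each age and a bar for the mean ± SD. The 4 Gria genes, Grik1 and Grik3 lie higher at P5, Grik2 lies lower, and in Grik4 the ages overlap.

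Gria2 (ENSMUSG00000033981.14, NM_013540, chr3:80681450-80802835 of mm10, minus strand) took the most reads of the 9 genes. It had 314, 338 and 366 CPM in E18 replicates 1, 3 and 4, and 606, 523 and 566 CPM in P5 replicates 6, 8 and 9. The mean ± SD of the 3 samples was 339 ± 25.9 CPM at E18 against 565 ± 41.1 CPM at P5. Each P5 sample lay above each E18 sample, and the log2 fold change of E18 over P5 was -0.74 (SE 0.0951, edgeR adjusted p = 0.000801).

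Gria4 (ENSMUSG00000025892.16, NM_019691, chr9:4417896-4796234, minus strand), whose subunit gives fast channel kinetics, had 222, 240.3 and 251 CPM in the E18 samples and 371, 319.6 and 390.0 CPM in the P5 samples. The groups did not overlap, and the log2 fold change was -0.60 (SE 0.101, edgeR adjusted p = 0.00226). Gria1 (ENSMUSG00000020524.16, NM_008165, chr11:57011387-57330244, plus strand), the subunit best known from activity-driven insertion at synapses, had 104, 97.3 and 111 CPM at E18 and 144, 133 and 149 CPM at P5. It had the smallest difference of the class, with a log2 fold change of -0.44 (SE 0.0911, edgeR adjusted p = 0.00535), and still no overlap between the ages. Gria3 (ENSMUSG00000001986.16, NM_016886, chrX:41400854-41678601, plus strand), which pairs with GluA2 in many neurons, had 33.2, 38.6 and 42.6 CPM at E18 and 63.8, 53.4 and 73.6 CPM at P5. Its log2 fold change was -0.74 (SE 0.141, edgeR adjusted p = 0.00394), as large as that of Gria2 and with a wider spread.

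The kainate genes held the largest differences in either direction. Grik3 (ENSMUSG00000001985.9, NM_001081097, chr4:125490700-125714173, plus strand), the gene of a subunit with low sensitivity to glutamate, had 16.9, 14.4 and 22.3 CPM in the E18 samples and 55.2, 45.8 and 73.1 CPM in the P5 samples. The lowest P5 sample stood well above the highest E18 sample, and the log2 fold change was -1.70 (SE 0.208, edgeR adjusted p = 0.000630), a size above that of 93.2% of all genes tested. Grik1 (ENSMUSG00000022935.16, NM_146072, chr16:87895900-88290265, minus strand) had 7.47, 6.89 and 6.11 CPM at E18 and 19.3, 14.5 and 18.14 CPM at P5. It was low at E18 in each sample, and its log2 fold change was -1.34 (SE 0.151, edgeR adjusted p = 0.000462).

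Grik2 (ENSMUSG00000056073.16, NM_010349, chr10:49094833-49788766, minus strand) was the only one of the 9 that passed the test as higher at E18. It had 55.3, 76.1 and 60.1 CPM in E18 replicates 1, 3 and 4 and 28.7, 33.7 and 24.5 CPM in P5 replicates 6, 8 and 9. The groups did not overlap, and the log2 fold change was 1.14 (SE 0.156, edgeR adjusted p = 0.000953).

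Neither of the high-affinity subunit genes passed the test. Grik5 (ENSMUSG00000003378.9, NM_008168, chr7:25009849-25072346, minus strand) had 49.2, 46.1 and 53.7 CPM at E18 and 36.3, 45.02 and 45.1 CPM at P5. Its E18 values lay just above the P5 values without overlap, but 2 of the P5 samples came close to the lowest E18 sample (log2 fold change 0.24, SE 0.116, edgeR adjusted p = 0.128). Grik4 (ENSMUSG00000032017.14, NM_175481, chr9:42518135-42944493, minus strand) had 11.0, 11.0 and 14.8 CPM at E18 and 10.7, 10.6 and 12.3 CPM at P5. The ages overlapped, the log2 fold change was 0.13 (SE 0.155, edgeR adjusted p = 0.520), and the log2 fold change turned to -0.0279 without E18 replicate 4.

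Levels of different genes were compared per length, as CPM per kilobase of exon (union of the exons in GENCODE's basic set). At E18, Gria4 led with 37.7 ± 2.30, followed by Gria2 with 32.4 ± 2.47, Gria1 with 18.01 ± 1.19 and Grik5 with 13.2 ± 1.02 CPM per kilobase (SD, n = 3 each). Next came Gria3 with 7.02 ± 0.869 and Grik2 with 6.15 ± 1.05, which overlapped, and then Grik4, Grik3 and Grik1 with 2.06 ± 0.374, 1.99 ± 0.454 and 1.61 ± 0.162, each overlapping the next. At P5, Gria4 with 57.1 ± 5.78 and Gria2 with 53.9 ± 3.92 overlapped, and Gria1 stood below both with 24.5 ± 1.41. Gria3 with 11.7 ± 1.85 had drawn level with Grik5 at 11.2 ± 1.35, and these overlapped too. The 4 kainate genes below them were in another order than at E18, with Grik3 at 6.47 ± 1.55, Grik1 at 4.09 ± 0.597, Grik2 at 2.79 ± 0.444 and Grik4 at 1.88 ± 0.154, without overlap between neighbours. Thus Grik2 stood above Grik3 and Grik1 in all E18 samples and below both in all P5 samples. The RefSeq exons on which the authors counted may differ in length from those used here. That bears on the order of genes and on their shares of a sum, and not on a gene's difference between ages.

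**Figure D2:**
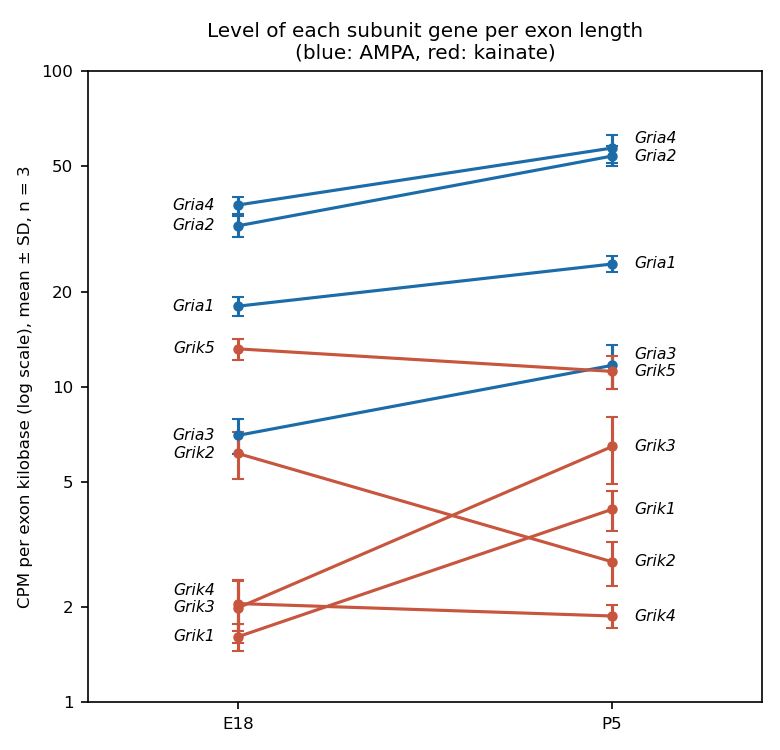
The vertical log axis gives the CPM per exon kilobase of each subunit gene, as mean ± SD of 3 samples, at E18 on the left and P5 on the right. The AMPA genes (blue) rise side by side, whereas among the kainate genes (red) Grik2 falls from 6.15 to 2.79 and crosses Grik3 and Grik1.

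Summed per length, the AMPA genes gave 89.3, 94.3 and 102 CPM per kilobase in the E18 samples and 153, 133 and 155 in the P5 samples. All P5 sums were above all E18 sums (exact permutation test, two-sided, p = 0.1, the smallest that 3 samples against 3 allow; adjusted p = 0.133 over 4 summed levels and shares tested). The kainate genes summed to 23.9, 24.7 and 26.5 at E18 and to 24.9, 25.5 and 28.8 at P5. The kainate sums overlapped between ages, with a mean ± SD of 25.01 ± 1.33 against 26.4 ± 2.11 (exact permutation p = 0.4, adjusted p = 0.4). For the AMPA sums, which did not overlap, it was 95.1 ± 6.23 against 147 ± 12.02. The AMPA sum was accordingly 3.74 to 3.84 times the kainate sum at E18 and 5.23 to 6.14 times at P5.

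The make-up of the AMPA class shifted by a few percentage points. Gria2 held 33.5%, 34.2% and 34.3% of the AMPA sum per length in the E18 samples and 37.7%, 37.4% and 34.8% in the P5 samples. The mean difference, E18 minus P5, was -2.62 percentage points, and -2.85 points without the correction for length. The level of the share depends on the exon lengths, 10486 bases for Gria2 against 5786, 5437 and 6305 for Gria1, Gria3 and Gria4. The highest E18 share lay just under the lowest P5 share, in replicate 9 (exact permutation p = 0.1, adjusted p = 0.133). Gria1 held 19.0% ± 1.18 at E18 and 16.7% ± 0.500 at P5 (SD over 3 samples), without overlap. Gria4 held 39.6% ± 0.690 and 38.8% ± 0.987, and Gria3 held 7.36% ± 0.458 and 7.92% ± 0.715, and both overlapped between ages.

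The make-up of the kainate class shifted by more. Grik5 and Grik4 together held 62.4%, 57.2% and 63.3% of the kainate sum per length at E18 and 45.9%, 53.9% and 48.7% at P5 (exact permutation p = 0.1, adjusted p = 0.133). The mean difference, E18 minus P5, was 11.5 percentage points, and 7.34 points without the correction for length. Among the subunits that form channels by themselves, Grik2 held 22.3%, 29.7% and 21.9% at E18 and 11.1%, 12.7% and 8.18% at P5. The share of Grik3 was 7.90%, 6.49% and 9.40% at E18 and 24.7%, 20.01% and 28.3% at P5, and that of Grik1 was 7.39%, 6.61% and 5.45% against 18.33%, 13.4% and 14.9%. In the ratio of Grik3 to Grik2, the E18 samples reached 0.218 to 0.430 and the P5 samples 1.57 to 3.46. The single-subunit shares and ratios are given without a test.

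**Figure D3:**
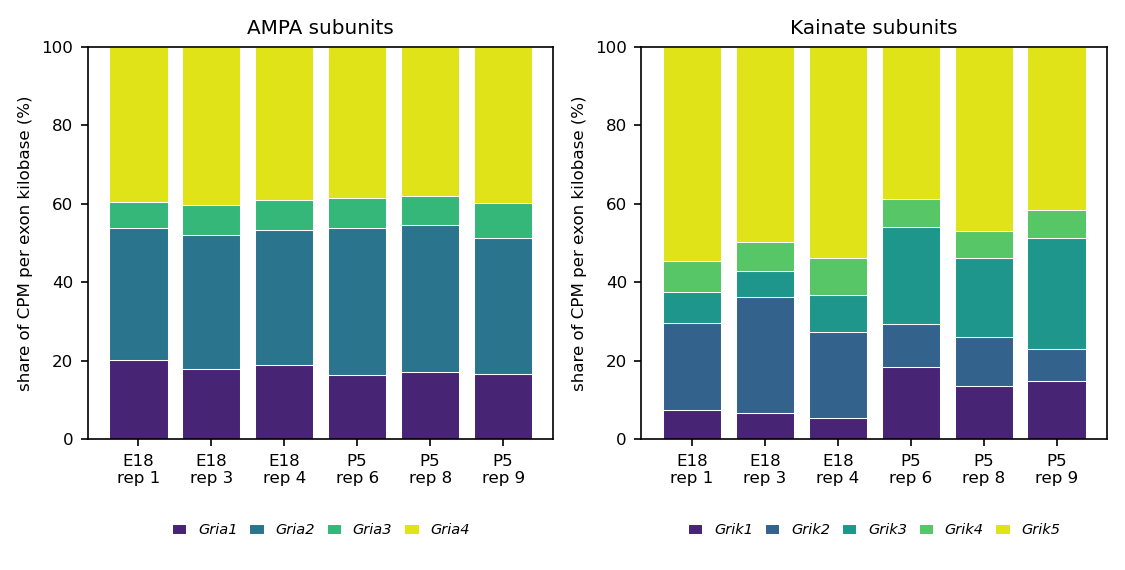
Each stacked bar is a sample, and its parts are the shares of the subunit genes in the CPM per exon kilobase of their class, which add to 100%. In the AMPA bars Gria2 holds 33.5% to 37.7% in all samples, whereas in the kainate bars the part of Grik2 shrinks from 21.9% or more at E18 to 12.7% or less at P5 while those of Grik1 and Grik3 grow.

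Genes that assemble, anchor, modulate or edit these receptors were described as lists. Of 35 such genes in the table, 20 passed with an edgeR adjusted p of 0.000166 to 0.0267. At E18, 3 of them were higher and 17 lower, against 20.8% and 22.5% of all genes. Their median log2 fold change was -0.54, against 0.00473 over all genes tested, and in 23 of them the ages did not overlap, against 56.1% of all genes tested.

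Of 12 auxiliary subunits of the AMPA receptor, which ride with the channel and set its gating and traffic, 5 were lower at E18, 2 were higher and 5 did not pass. The 4 with the largest differences were scarce at E18. Shisa6 stood at 0.320 ± 0.110 CPM at E18 and rose to 3.46 ± 1.09 CPM (mean ± SD of 3 samples, as for the genes that follow), which is -3.44 as log2 fold change. Gsg1l rose from 1.03 ± 0.149 to 7.53 ± 1.91 CPM (log2 fold change -2.86), Cnih3 from 0.925 ± 0.207 to 6.15 ± 1.83 CPM (-2.73) and Shisa9 from 2.51 ± 0.362 to 13.8 ± 3.54 CPM (-2.46), with an edgeR adjusted p of 0.000166 to 0.000352 for these 4. Cacng5, the most read of the list, rose from 134 ± 10.3 to 196 ± 37.3 CPM (log2 fold change -0.54, edgeR adjusted p = 0.0127). Shisa7 was higher at E18, with 27.4 ± 1.59 against 19.1 ± 2.27 CPM (log2 fold change 0.52, edgeR adjusted p = 0.00819). Cacng4 was higher as well (0.60, edgeR adjusted p = 0.0267), but it no longer passed in 5 of 6 fits that left out a sample, all but that without P5 replicate 8, where the edgeR adjusted p ran from 0.000484 to 0.0971. Cacng2, the gene of stargazin, had 23.9 ± 1.06 and 29.6 ± 4.24 CPM, a log2 fold change of -0.31 that did not pass (edgeR adjusted p = 0.0721), and Cacng3, Cacng7, Cacng8 and Cnih2 did not pass either.

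The kainate receptor has 2 auxiliary subunits, of which Neto2 was the abundant one, with 124, 129.6 and 138.6 CPM at E18 and 234, 139.5 and 214 CPM at P5. P5 replicate 8 lay just above the highest E18 sample. Its log2 fold change of -0.58 passed (edgeR adjusted p = 0.0252), and the call was lost without E18 replicate 1, E18 replicate 3, P5 replicate 6 or P5 replicate 9, with adjusted p of 0.000430 to 0.0906 over the fits that left out a sample. Neto1 had 1.52 ± 0.392 and 2.31 ± 0.352 CPM and did not pass (log2 fold change -0.61, edgeR adjusted p = 0.0867).

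In the endoplasmic reticulum, Frrs1l, which helps to build AMPA receptors, was higher at P5 (46.3 ± 2.86 against 83.2 ± 14.2 CPM, log2 fold change -0.84), as was Abhd6 (log2 fold change -0.67), whereas Cpt1c and Porcn did not pass (edgeR adjusted p = 0.648 and 0.668). Of 7 anchoring and trafficking genes, 3 were higher at P5. They were Nsf, the ATPase that binds GluA2 and drives membrane fusion in general, with 139.6 ± 9.21 and 406 ± 125 CPM (log2 fold change -1.54), Grip2 (-1.18) and Dlg1 (-0.53). Grip1, Gripap1, Pick1 and Epb41l1 did not pass. Of 6 pentraxins and noelins, secreted or surface proteins that gather AMPA receptors, 4 were higher at P5, namely Nptx2 with 27.7 ± 4.49 against 104 ± 21.8 CPM (log2 fold change -1.91), Olfm3 (-0.94), Nptx1 (-0.86) and Olfm1 (-0.35). Olfm1 lost its call without E18 replicate 3 (edgeR adjusted p = 0.0512), within a range of 0.00607 to 0.0512 over the fits without a sample. Nptxr and Olfm2 did not pass. The delta receptor gene Grid1, a relative of the subunit genes whose product binds no glutamate, was higher at P5 (log2 fold change -0.62, edgeR adjusted p = 0.00272).

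The adenosine deaminases differed from each other. Adarb1, the gene of ADAR2, which edits the Q/R codon of Gria2 shown above, had 115.1, 104.6 and 125.8 CPM in the E18 samples and 271, 246 and 335 CPM in the P5 samples, with no overlap. Its log2 fold change was -1.30 (SE 0.130, edgeR adjusted p = 0.000303). Adar, of broader target range, had 141 ± 11.9 and 145 ± 14.1 CPM (log2 fold change -0.04, edgeR adjusted p = 0.768). Adarb2, for which no editing activity is known, was higher at E18, with 9.67 ± 1.62 against 4.36 ± 0.681 CPM (log2 fold change 1.15, edgeR adjusted p = 0.00199).

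**Figure D4:**
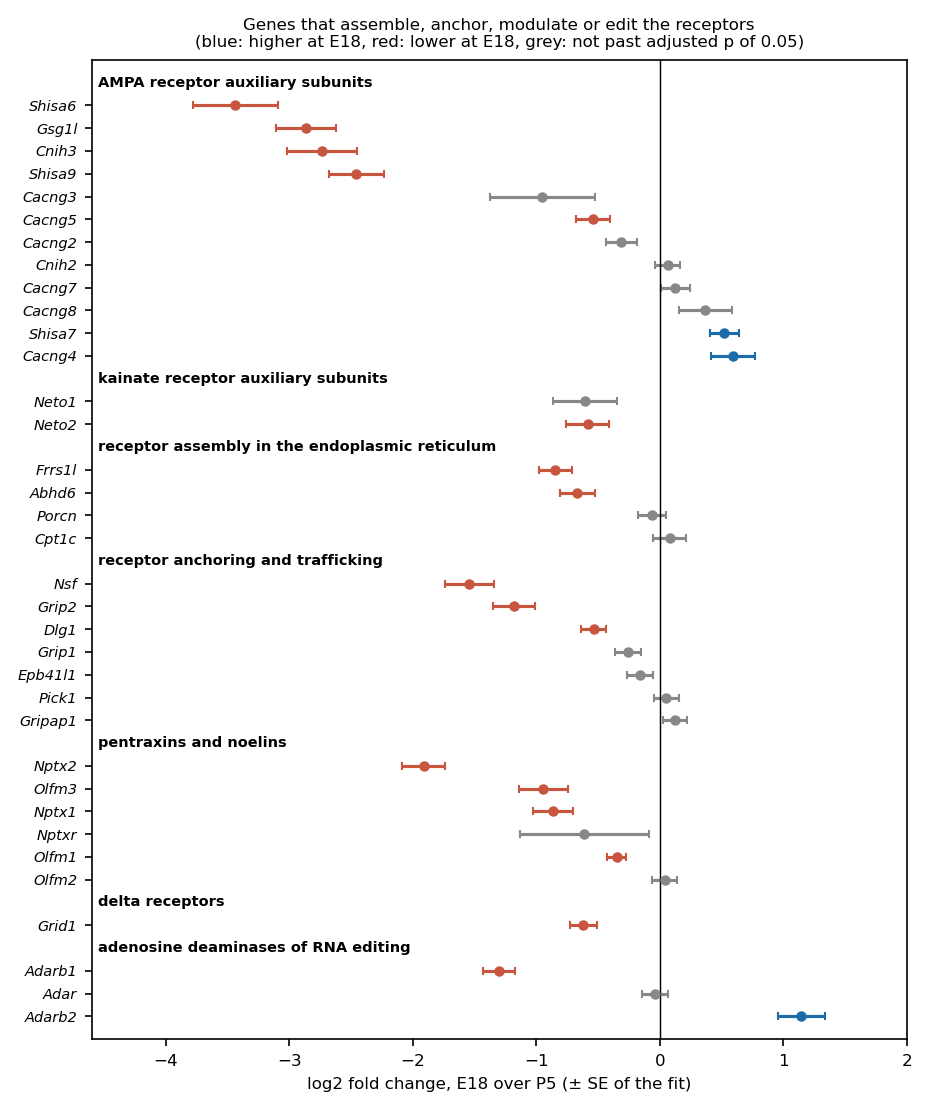
Points give the log2 fold change of E18 over P5 for the 35 genes in 7 lists, with bars for the standard error of the fit, blue for genes higher at E18, red for genes lower and grey for genes past no threshold. Of the 35, 17 are red and 3 are blue, and the points farthest to the left are Shisa6, Gsg1l, Cnih3 and Shisa9.

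Since the study turned to REST and Elk-1 as regulators, the promoter windows of the subunit genes were searched for their motifs. RefSeq windows of GRCm38.p6, from 250 bases before to 50 after a start site, were found for 6 of the 9 genes, namely Gria2, Gria4, Grik2, Grik3, Grik4 and Grik5. The RE1 consensus, the long element bound by REST, was sought on both strands and occurred in 0.0639% of all 32851 windows (21 windows). Of the 6, Gria2 alone held it, at chr3:80802990-80803005, on the strand opposite to the gene and with its first base 170 bases before the start. The stretch is shown on the strand that carries the match, with the match in capitals.
Gria2 RE1: ttcgattTTAGCACCGCGGACAGcgctttg
The Ets core CGGAAG, part of the Elk-1 consensus, was sought on both strands too and occurred in 16.9% of all windows and in those of Grik2, Grik4 and Grik5. The match of Grik2 lies at chr10:49788971-49788976, on the gene's strand.
Grik2 Ets core: ggccgagggttcCGGAAGcactaggtggtc
The GC box GGGCGG, which shares the letters CGG with the Ets core so that matches can overlap, was sought likewise and occurred in 35.7% of all windows and in those of Grik3, Grik4 and Grik5. A match describes the letters of these windows and not the binding of a factor.

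The cells were checked by marker genes. Pou4f2, a factor of RGC identity, had 181 ± 7.62 CPM at E18 and 219.97 ± 35.9 CPM at P5 and did not pass (log2 fold change -0.28, edgeR adjusted p = 0.0897). The 15 RGC markers summed to 10052 to 11818 CPM at E18 and 10214 to 11344 CPM at P5, and 5 of them were higher at E18, 4 were lower and 6 did not pass. Those higher were Isl1 (log2 fold change 1.10), Gap43 (0.51), Tubb3 (0.49), Sncg (0.40) and Ebf1 (0.36). Thy1, whose product the panning antibody binds, was lower at E18, with 247 ± 56.2 against 553 ± 119.7 CPM (log2 fold change -1.16, edgeR adjusted p = 0.00197), as were Pou4f3 (-0.54) and Nefl (-0.68). Without E18 replicate 3, Ebf1 and Pou4f3 no longer passed (edgeR adjusted p = 0.0523 and 0.0660 at most with any sample left out), and Pou4f3 also without E18 replicate 1. Slc17a6, the transporter that loads glutamate into RGC vesicles, was higher at P5 with 744 ± 205 against 282 ± 30.7 CPM (log2 fold change -1.40, edgeR adjusted p = 0.000931). Among other cell types, the sums overlapped between ages for photoreceptor genes (10.4 to 17.1 CPM at E18, 14.5 to 25.2 CPM at P5), bipolar genes (50.4 to 75.2 and 71.2 to 101 CPM), horizontal cell genes (46.7 to 70.9 and 56.0 to 69.3 CPM) and Müller glial and astrocyte genes (499.7 to 603 and 475 to 513 CPM). The bipolar genes Vsx1 and Grm6 stayed at or under 0.0532 CPM. Without overlap, the sums were higher at E18 for microglial genes (4.90 to 5.34 against 3.61 to 3.73 CPM) and oligodendrocyte lineage genes (75.0 to 77.6 against 40.1 to 63.6 CPM). Single genes did not all follow these sums. Of 10 photoreceptor genes tested, 3 were higher at E18, 2 were lower and 5 did not pass. Of 8 bipolar genes tested, 2 were higher, 4 were lower and 2 did not pass. Of 4 horizontal cell genes tested, 1 was higher, 1 was lower and 2 did not pass. Of 11 Müller glial and astrocyte genes tested, 3 were higher, 1 was lower and 7 did not pass. Over all genes tested, 20.8% were higher at E18 and 22.5% lower. Of 9 microglial genes tested, 1 was higher at E18 and 8 did not pass. Of 7 oligodendrocyte lineage genes tested, 1 was higher at E18, 2 were lower and 4 did not pass. Endothelial and pericyte genes summed to 72.6, 64.6 and 16.5 CPM in E18 replicates 1, 3 and 4 and to 14.8 to 18.07 CPM at P5, and Kdr held most of each E18 sum. Of the 8 endothelial and pericyte genes tested, Kdr alone was higher at E18, 4 were lower and 3 did not pass.

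Amacrine cells, which also carry these receptors, were marked unevenly. Of 11 amacrine markers, 10 had enough reads to test, and 5 of these were higher and 2 lower at E18. Calb2, which RGCs express too, made up most of the sum. Without Calb2, which was set aside after its value was seen, the other 10 summed to 112, 215 and 20.3 CPM in E18 replicates 1, 3 and 4 and to 37.9, 41.5 and 49.7 CPM in P5 replicates 6, 8 and 9. The 14 genes of dividing cells summed to 385, 175 and 122 CPM in E18 replicates 1, 3 and 4 and to 91.8 to 112 CPM at P5. The part of these cells in the values of the subunit genes was not tested across samples. In E18 replicate 4, the amacrine sum without Calb2 was below that of each P5 sample. The sum of dividing cell genes in it was above that of each P5 sample. Its amacrine markers were mixed, with Dab1 at 4.59 CPM against 17.5 to 20.2 CPM at P5. Tfap2b had 1.62 CPM in it against 1.02 to 1.55 CPM at P5. In that sample Grik2 stood at 60.1 CPM, Grik3 at 22.3 and Gria2 at 366, each on the E18 side of all P5 samples.

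Set alone against the P5 samples in edgeR, E18 replicate 4 gave log2 fold changes of -0.62 for Gria2, -1.49 for Grik1, 1.06 for Grik2 and -1.37 for Grik3. Gria1 (-0.34), Gria3 (-0.57) and Gria4 (-0.51) kept the sign without passing. This comparison was added after the marker values were seen and takes its spread from the P5 samples. Fewer subunit genes, associated genes and genes in all passed in it than with all samples. The higher calls of Cacng4, Shisa7 and Adarb2 were lost. As a single sample stands for E18, its p-values and counts are not given. With any single sample left out, all 7 calls among the subunit genes held with their sign. The log2 fold change of Gria2 then ran from -0.81 to -0.68, that of Grik2 from 1.00 to 1.25 and that of Grik3 from -1.89 to -1.50.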

How the data were processed

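RGCs were sequenced from 3 E18 and 3 P5 samples, grouped by the age in their titles. Per the paper's methods, libraries were depleted of ribosomal RNA (the sample labels name polyA RNA), and paired-end reads were aligned to mm10 with STAR and assigned to RefSeq genes by HT-seq. The authors deposited raw read counts per gene, which were used for all values here. They also deposited normalized counts (a signal scaled for library size), log2 fold changes overall and for each E18 sample, p-values with false discovery rates from EdgeR, and a rank, a score by the authors. None of these was used. The strand setting and the treatment of reads from similar genes are not given in the sources used here.

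Counts on genes totalled 81213639 to 114512853 per sample. Genes were filtered with filterByExpr (16449 of 24060 kept), scaled by TMM and compared in edgeR 4.0.16 (R 4.3.3) by the quasi-likelihood test, adjusted over all genes after Benjamini-Hochberg, at a threshold of 0.05. The procedure was also run on simulated counts in which 200 of 16449 genes were changed 2-fold. In the real data 43.4% of genes passed, so that run does not measure the error of the calls made here. Samples of one age differed by 30.5 to 141 chi-square units per degree of freedom, far above sampling noise, so the spread between samples sets the precision. Summed levels and shares were compared by exact permutation tests in scipy 1.17.1. Exon lengths and coordinates come from GENCODE M21 (mm10), and promoter windows from RefSeq. Genes that overlap the exons of Gria2, Gria3, Gria4 and Grik4 in GENCODE are not in the count table.

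The members and the gene lists were chosen with earlier results of these data known. The genes named are all members, the genes of the associated lists, Pou4f2 and Slc17a6 as checks, and the 3 genes most correlated with the most abundant and with the most changed member. Calb2, Dab1, Tfap2b, Vsx1, Grm6, Kdr and the other RGC markers were named after their values were seen. Of the genes listed, Shisa8 had no match in the table, and 2 genes that these rules cover are not reported here. Alternatives were upper-quartile and RLE normalization, DESeq2 1.42.0, the likelihood ratio and exact tests of edgeR, 2 other filters, other exon lengths and leaving out each sample.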

Additional observations from a re-analysis of the deposited data

How the results depend on the processing

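The 7 calls among the subunit genes held with their sign under all 7 alternatives of normalization, test or filter and without each sample in turn. Without both E18 replicate 1 and E18 replicate 3, 4 subunit genes, 9 of the 35 associated genes and 1633 of all genes passed, with fewer samples in the fit. Grik4, which did not pass, changed sign without E18 replicate 4 (log2 fold change -0.0279), and had 0.42 without both E18 replicates 1 and 3. Over the fits that left out a sample, all genes passing numbered 4575 (without E18 replicate 3) to 8796 (without P5 replicate 8), subunit genes 7 to 7, and associated genes 17 to 20. Without length correction the difference in the Grik4 and Grik5 share, E18 minus P5, was 7.34 percentage points, against 11.5 with it. The small difference of the kainate sum turned to 0.00612 on the log2 scale with E18 replicate 4 alone against P5, a setting that, like exon lengths with retained introns, was chosen after seeing the data. Without each sample in turn, the AMPA sum differed by -0.70 to -0.59 and the kainate sum by -0.12 to -0.01 on the log2 scale, the Gria2 share by -3.53 to -2.09 points and the Grik4 and Grik5 share by 9.68 to 13.7 points. No other normalization moved the median of all genes by more than 0.00817. No paired analysis was possible because the ages share no replicate number. Reads summed per gene do not separate isoforms or edited transcripts, and with 3 samples a side the permutation tests cannot go below 0.1.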

Other observations

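The genes whose log2 CPM followed the subunit genes most closely over the 6 samples were listed for 2 of them, among 9724 other genes whose mean CPM reached 10. For Gria2 they included Ikbip and Serinc3, each with a Pearson's r of 0.999. For Grik3 they were Ankrd34a, Orc5 and Rab6b, each with an r of 0.999. As the samples fall into the ages, most of such a correlation is the difference between E18 and P5, and 888 genes exceeded an r of 0.95 with Gria2 and 1091 with Grik3. Among the other subunit genes, Gria1 followed Grik3 most closely (r = 0.996), and Grik2 ran opposite to it (r = -0.981).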
